A study of Homo sapiens with 28 samples.

Results

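The members are the ATAC-seq peaks that touch 1 of 2 stretches of the short arm of human chromosome 6, chr6:26000000-26300000 and chr6:27080000-27880000 (hg19), where most replication-dependent histone genes lie. Over 28 deposited peak lists, 1851 of 1247388 peaks met that rule, between 53 and 80 per list. The 780 kb stretch between the intervals held 753 peaks and served as the comparison. The 2 intervals, 300 kb and 800 kb long, are called the cluster below.

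All libraries came from AN3CA, an established human endometrial carcinoma line, in which a transposase cut and tagged open DNA. Titles name ATAC-seq, whereas the series' design text speaks of CUT&Tag, and the titles were followed. The cells carried an empty vector (Empty_vector, 4 libraries) or 1 version of ARID1A or ARID1B, which are the ARID-domain subunits that can replace each other in the cBAF chromatin remodeler (12 constructs, 2 libraries each). ARID1A_WT and ARID1B_WT are the wild types. Of ARID1A, DBDmut is labelled a mutant of the ARID domain, delIDR1 and CBR are labelled truncations, and DDX4 is labelled a hybrid in its IDR, a disordered region. Y42S and AQGscramC1C2 of ARID1A, and S320_G327del, A457_G461del, Block13del and Block9del of ARID1B, are given by name. In 10 libraries (Y42S, AQGscramC1C2, A457_G461del, Block13del, Block9del) the genotype label says empty vector while the title and the names in the peak list give the construct, and the title was used. The labels do not say whether replicates were separate cultures, so the p-values cover a spread that may be technical. The labels name neither the promoter that drives the constructs nor a clone.

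Date codes in the peak names divide the libraries into 6 runs. ARID1A_WT, its DBDmut, delIDR1 and CBR forms and Empty_vector have replicate 1 in run A and replicate 2 in run B. ARID1B_WT and ARID1B_S320_G327del share run C with Empty_vector 3 and 4. The other 3 runs have no Empty_vector library. Deposited lists held 19489 to 76589 peaks. Since the number of reads is not part of the lists, depth is unknown, and lists were compared after each was trimmed to its 19433 most significant peaks on chromosomes 1 to 22 and X (equal-length lists). Rank 1 is the most significant peak of a list. The fold enrichment of a peak is the authors' own value over the background that the caller estimated.

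Replication-dependent histone genes supply the core histones H2A, H2B, H3 and H4 and the linker histone H1 while DNA is copied. They are short, lack introns and occur in many near-identical copies. In cycling cells their transcription is organised in the histone locus body, a nuclear body built around NPAT. Many H2A and H2B genes stand back to back and share 1 promoter, and an octamer motif known best from H2B promoters is bound by OCT1.

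The RefSeq table (GRCh38.p14) was used for gene names, order and promoter sequence only, because its build differs from that of the peaks. Counted by name in the order of that table, the cluster held 53 protein-coding histone genes: 6 of H1, 11 of H2A, 14 of H2B, 10 of H3 and 12 of H4. H2AC1 and H2BC1, which lie apart from the rest in that order, were not counted. The genes formed 3 blocks: 32 genes from H1-1 to H4C8, 5 from H2BC11 to H2AC12 and 16 from H2BC13 to H2BC17. Between H4C8 and H2BC11 the table lists 9 other protein-coding genes, among them the butyrophilin genes BTN1A1, BTN2A1 and BTN3A1, and 47 tRNA genes. Between H2AC12 and H2BC13 it lists 5, among them PRSS16 and ZNF184, and 51 tRNA genes. The intervals are set by position, and the second takes in this stretch between H2AC12 and H2BC13. A peak or region of the cluster therefore need not lie at a histone gene. Which peak lies on which gene was not analysed here.

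Promoter sequence, the 250 bases before a start, was found for 48 of the 53 genes (52 starts). The names without an entry are H2AC12, H3C11, H3C12, H4C1 and H4C3. Searched on both strands, the octamer ATTTGCAT occurred in 40.4% of these promoters, against 1.63% of all 35116 promoters of the table. It was in 80% of the H2A, 75% of the H2B and 10% of the H3 promoters, and in none of the 6 H1 and 10 H4 promoters. CCAAT was in 86.5% of the histone promoters against 32% of all. It was in all H1, H2A, H2B and H3 promoters, but in 30% of those of H4. TATAAA was in 65.4% against 10.7%. The 8 close pairs of H2A and H2B genes described below share the stretch between their starts. A match there counts for both genes, so the shares of H2A and H2B are not independent. These matches are letters in a window and not measured binding.

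There were 8 pairs of an H2A and an H2B gene that face apart with at most 250 bases between their starts (193 to 247 bases), and 6 of the 8 hold an octamer. Below are the stretches between the starts of 3 such pairs, read on the plus strand from the gene on the minus strand to its partner, which show the shared layout. The pair H2BC13 and H2AC13 is shown as a pair without the octamer. Capitals mark the octamer, CCAAT and TATAAA, or their reverse complements (ATGCAAAT, ATTGG and TTTATA).
H2BC4 to H2AC6: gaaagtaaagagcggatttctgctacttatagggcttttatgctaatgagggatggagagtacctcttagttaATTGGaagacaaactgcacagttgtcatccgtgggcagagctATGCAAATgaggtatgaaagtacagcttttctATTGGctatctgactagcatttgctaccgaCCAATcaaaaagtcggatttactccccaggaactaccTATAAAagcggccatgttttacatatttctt
H2BC11 to H2AC11: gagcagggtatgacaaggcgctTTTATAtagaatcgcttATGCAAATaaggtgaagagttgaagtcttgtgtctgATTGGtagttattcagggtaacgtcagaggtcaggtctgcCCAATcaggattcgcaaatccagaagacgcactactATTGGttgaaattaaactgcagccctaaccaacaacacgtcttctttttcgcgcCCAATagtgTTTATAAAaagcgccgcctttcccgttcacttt
H2BC13 to H2AC13: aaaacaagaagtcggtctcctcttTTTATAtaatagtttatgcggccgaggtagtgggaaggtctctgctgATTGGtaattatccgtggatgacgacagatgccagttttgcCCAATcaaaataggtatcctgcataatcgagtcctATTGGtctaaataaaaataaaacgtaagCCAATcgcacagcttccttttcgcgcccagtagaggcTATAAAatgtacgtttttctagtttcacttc

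One promoter of each of the other families is shown for contrast, 5′ to 3′ on the strand of the gene: the first gene of the family in chromosome order with an entry. The linker histone gene H1-1 has a CCAAT close to its TATAAA, H3C1 has 2 CCAAT matches, and H4C2 has 2 TATAAA matches and neither of the other motifs.
H1-1: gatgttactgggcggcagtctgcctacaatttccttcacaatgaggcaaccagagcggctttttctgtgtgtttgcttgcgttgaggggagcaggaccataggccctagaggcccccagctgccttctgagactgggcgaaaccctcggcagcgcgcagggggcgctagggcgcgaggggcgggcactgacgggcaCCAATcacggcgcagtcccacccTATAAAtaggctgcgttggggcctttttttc
H3C1: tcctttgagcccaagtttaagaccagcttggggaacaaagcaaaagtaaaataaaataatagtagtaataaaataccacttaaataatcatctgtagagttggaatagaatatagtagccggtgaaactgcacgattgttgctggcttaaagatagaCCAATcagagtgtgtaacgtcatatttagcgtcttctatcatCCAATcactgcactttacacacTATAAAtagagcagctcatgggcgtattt
H4C2: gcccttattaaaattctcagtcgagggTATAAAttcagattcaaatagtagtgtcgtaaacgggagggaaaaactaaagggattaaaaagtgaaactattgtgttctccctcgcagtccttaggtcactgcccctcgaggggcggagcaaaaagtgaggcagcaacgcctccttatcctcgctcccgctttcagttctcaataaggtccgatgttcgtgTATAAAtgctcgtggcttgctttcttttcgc

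The open chromatin of the cluster was broad and of low fold enrichment. In the equal-length lists the median width of the cluster peaks was above the median width of the same list in 26 of 28 libraries and above that of the stretch between the intervals in 28 of 28. The exceptions for the list median were Empty_vector 2 and ARID1A_DDX4 1. Median widths in the cluster ran from 648 to 1531 bp over libraries, with a median of 1222 bp. In contrast, the median fold enrichment of the cluster peaks was below that of the list and of the stretch between in 28 of 28 libraries. Relative to the own list, the median fold was 0.735 to 0.895 times the list value, and relative to the stretch between it was 0.697 to 0.882 times that value. The median rank of the cluster peaks was also weaker than that of the stretch between in all 28 libraries. In whole lists the cluster still had the lower median fold in 28 of 28 libraries, but its median width exceeded that of the stretch between in only 17 of 28.

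**Figure D1:**
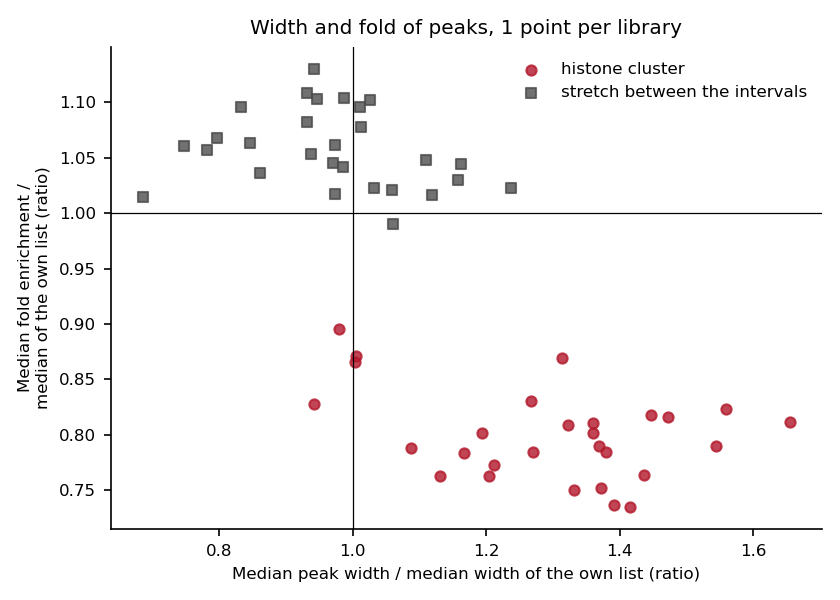
Each point is 1 library in the equal-length lists. The horizontal axis is the median peak width and the vertical axis the median fold enrichment, both divided by the median of the same list (ratios, no units); circles are the histone cluster and squares the stretch between its intervals. All 28 circles lie below a fold ratio of 1, and 26 of them lie to the right of a width ratio of 1.

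Peaks covered a larger share of the cluster than of the stretch between. In the equal-length lists they covered 4.10% to 6.99% of the cluster and 1.80% to 3.69% of the stretch between, and the cluster value was 1.56 to 2.38 times the other in 28 of 28 libraries. The first interval was covered more densely than the second in all 28 libraries, at 6.33% to 11.3% against 3.06% to 5.48%. Peaks at least 3 kb wide numbered 0 to 8 per library in the cluster. They were most frequent in ARID1A_CBR 2 (8), and both ARID1A_DDX4 libraries, both ARID1A_Y42S libraries and ARID1B_Block13del 2 had none. Peak widths of the whole equal-length lists differed too. The list median was 1114 bp in ARID1A_CBR 2 and 645 to 803 bp in the libraries with none. The share of peaks this wide in the lists was not counted.

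Merging the peaks of the equal-length lists and keeping regions called in at least 2 lists gave 59 cluster regions, 18 in the first interval and 41 in the second, numbered here from 1 to 59 along the chromosome. The whole genome gave 32972 such regions and the stretch between gave 24. Of the 59 cluster regions, 23 (39.0%) were called in all 28 lists, compared with 9922 (30.1%) over the genome and 18 of 24 (75%) in the stretch between. In whole lists the same regions were called in all 28 more often: 42 of the 59 (71.2%), 19 of 24 (79.2%) in the stretch between, and 47.8% over the genome. The regions called in all 28 lists had a median width of 2129 bp, and the other cluster regions 854 bp. The same widths over the genome were 1517 and 770 bp.

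Wide regions were relatively more frequent in the first interval, and they did not rank best. Of the 59 regions, 9 were at least 3 kb wide, 5 of the 18 in the first interval and 4 of the 41 in the second. Over the genome 605 of 32972 were that wide, and in the stretch between 0 of 24. Region 15 (chr6:26194842-26200622, 5781 bp) was the widest and was called in all 28 lists with a fold enrichment of 2.38 to 4.35 (median 3.16). Its rank was 7425, 9751, 9233 and 8377 in the 4 Empty_vector lists, 9166 and 11981 with ARID1A_WT, and 9010 and 8587 with ARID1B_WT, so each wild type overlapped Empty_vector, while both ARID1A_WT ranks were weaker than both ARID1B_WT ranks. The next widest were region 4 (chr6:26030240-26034510, 4271 bp), region 58 (chr6:27859966-27864149, 4184 bp), region 57 (chr6:27803891-27807868, 3978 bp) and region 13 (chr6:26155839-26159730, 3892 bp). All 4 were called in all 28 lists.

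The best ranked region was the last one, region 59 (chr6:27870081-27871412, 1332 bp), with a mean rank of 1508 over the 28 lists and a fold enrichment of 6.44 to 10.7. Its rank was 753, 387, 907 and 3213 in the Empty_vector lists, 335 and 964 with ARID1A_WT, 1260 and 2196 with ARID1B_WT, and 162 to 4546 over the 20 lists of altered constructs. All wild-type values but the 335 of ARID1A_WT 1 lay within the Empty_vector range. Region 34 (chr6:27439946-27441787) followed with a mean rank of 2289, then region 21 (chr6:27113132-27115816) with 2899 and region 33 (chr6:27356039-27357150) with 2949. Regions 38 (chr6:27486291-27487572), 25 (chr6:27155042-27157055), 17 (chr6:26222935-26224732) and 55 (chr6:27777640-27778778) had mean ranks of 3872, 3946, 4193 and 4352. Of these 8 best ranked regions, region 17 alone lay in the first interval. For comparison, the best region of the stretch between (chr6:26659464-26660661) had a mean rank of 799, and the next 2 (chr6:26473823-26475232 and chr6:26536912-26539693) had 2157 and 2161.

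**Figure D2:**
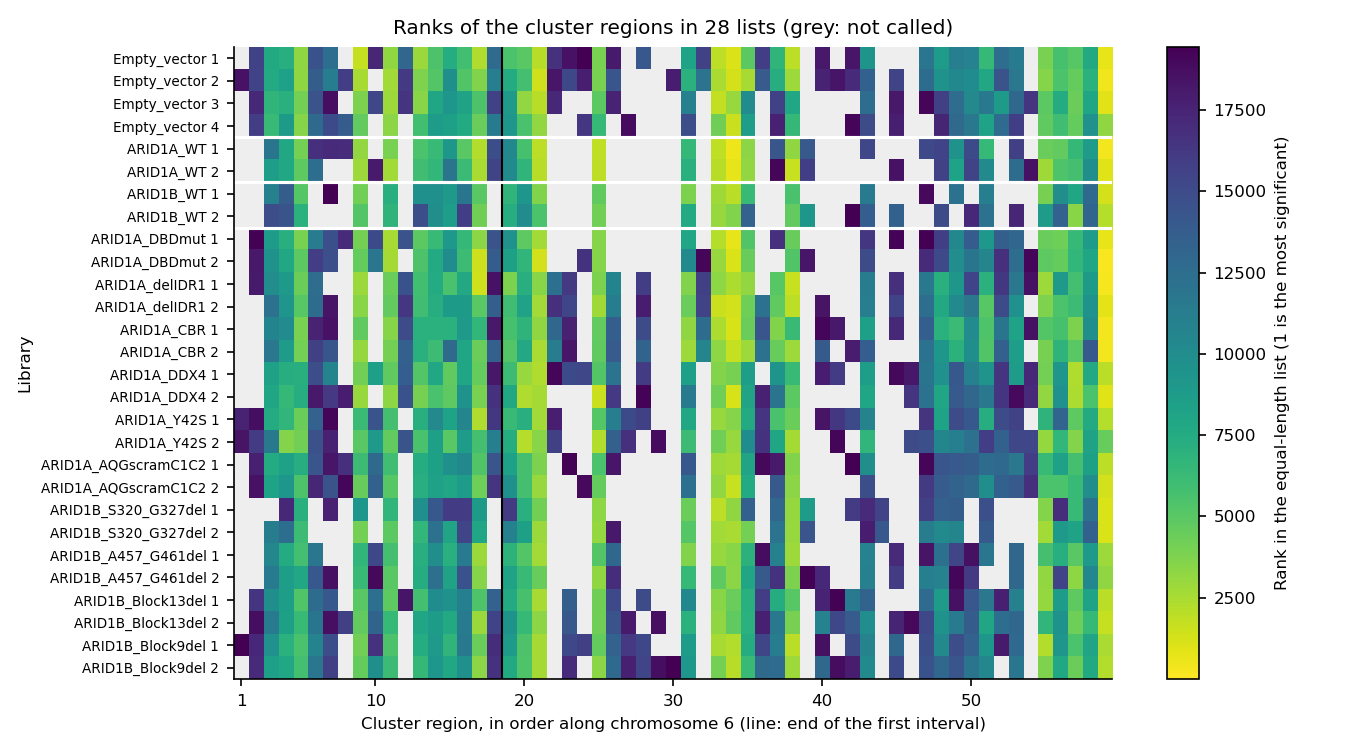
Each column is 1 of the 59 cluster regions in chromosome order, each line of cells is 1 library, and the colour is the rank in the equal-length list (yellow is the most significant, grey is not called). The 23 columns without grey are called in all 28 lists; the grey columns in the middle of the second interval are regions called in few lists.

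With either wild type, fewer peaks of the equal-length lists fell in the cluster. The Empty_vector lists had 49, 51, 44 and 42 cluster peaks. ARID1A_WT had 38 and 37 and ARID1B_WT had 29 and 33, so each of the 4 wild-type lists was below each Empty_vector list. The means were 34.25 ± 4.11 (SD, n = 4) and 46.5 ± 4.20 (SD, n = 4), a difference of -12.25 peaks (exact permutation test, two-sided, p = 0.0286, the smallest that 70 splits allow). Over the 7 summaries tested this way the Benjamini-Hochberg adjusted p was 0.1, which does not pass 0.05. Within runs the difference was -12.5 peaks for ARID1A_WT (runs A and B) and -12 for ARID1B_WT (run C). Both intervals took part: the first held 17, 17, 17 and 16 peaks with Empty_vector, 15 and 14 with ARID1A_WT and 11 and 11 with ARID1B_WT. The second held 32, 34, 27 and 26, then 23 and 23, then 18 and 22. In the stretch between the counts were 23, 23, 24 and 21 with Empty_vector, 22 and 22 with ARID1A_WT, and 22 and 20 with ARID1B_WT, which overlapped (difference -1.25, exact permutation p = 0.286).

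The direction of that difference depended on the trimming. In the whole lists the same libraries had 75, 75, 55 and 61 cluster peaks with Empty_vector, 78 and 71 with ARID1A_WT, and 68 and 65 with ARID1B_WT, a difference of 4 peaks in the opposite direction (exact permutation p = 0.571). Trimming to an equal covered length left a difference of -1.5 (exact permutation p = 0.429), and leaving out ARID1B_WT 1 from the equal-length comparison gave -10.5 (exact permutation p = 0.0571). The deposited lists of the wild types were longer (59826 to 76589 peaks) than those of Empty_vector (24573 to 49528). Over all 28 libraries, the 11 lists of at least 50000 peaks kept 29 to 46 cluster peaks (median 38) and the 17 shorter ones 41 to 53 (median 48). The part of list length in the difference was not tested.

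**Figure D3:**
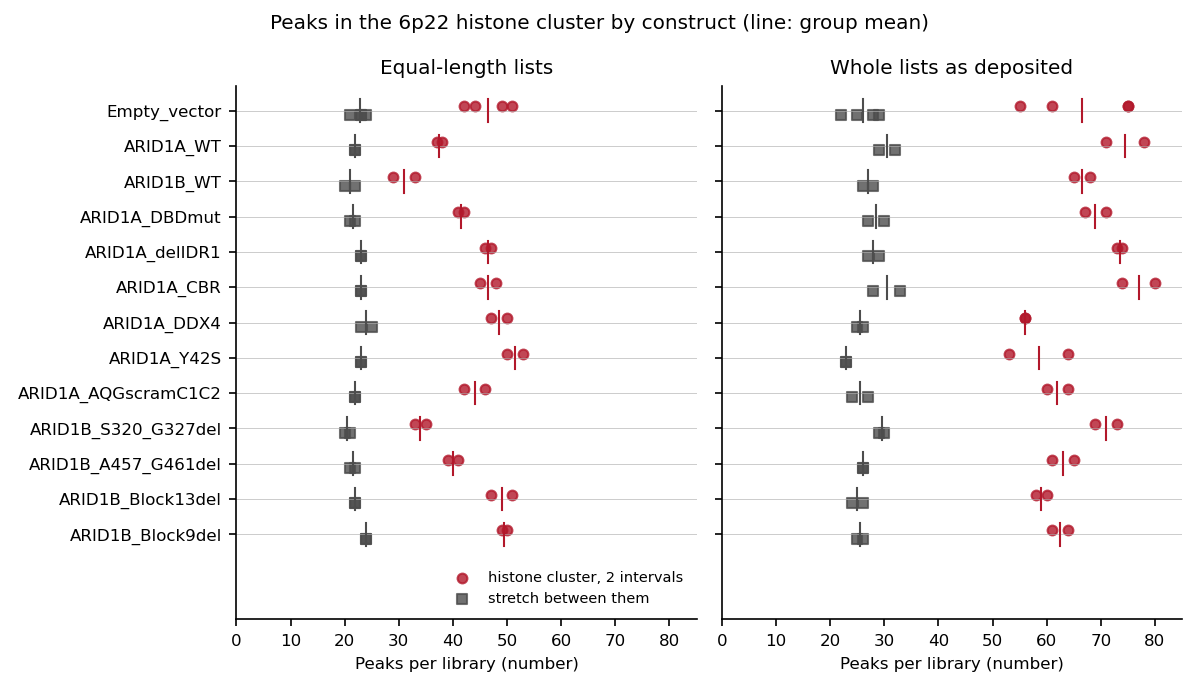
Number of peaks per library (horizontal axis) by group, in equal-length lists (left) and whole lists (right). Circles are the histone cluster, squares the stretch between its intervals, and lines are group means. On the left the 4 wild-type libraries have 29 to 38 cluster peaks and the 4 Empty_vector libraries 42 to 51; on the right they overlap.

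The length covered showed a smaller difference of the same direction. In the equal-length lists peaks covered 4.81% ± 0.800 (SD, n = 4) of the cluster with wild type and 6.07% ± 0.918 (SD, n = 4) with Empty_vector (exact permutation p = 0.143). The cluster share minus that of the stretch between was 2.05 ± 0.479 percentage points with wild type and 3.09 ± 0.353 with Empty_vector (SD, n = 4 each), a difference of -1.04 (exact permutation p = 0.0286, adjusted p = 0.1). All 4 wild-type lists were below all 4 Empty_vector lists, and the difference was -0.945 for ARID1A_WT and -1.14 for ARID1B_WT within their runs. In whole lists it was -0.0563 (exact permutation p = 0.8), and without Empty_vector 1 or without Empty_vector 2 it was -0.916 and -0.970 (exact permutation p = 0.0571 each).

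Widths and ranks of the peaks that remained did not pass the test. The median width was 1384 ± 126 bp with wild type and 1209 ± 123 bp with Empty_vector (SD, n = 4 each, exact permutation p = 0.143), and in whole lists the difference had the opposite sign (-98.5 bp, exact permutation p = 0.0286). The median rank was 7862 ± 1448 with wild type against 8746 ± 779 with Empty_vector (SD, n = 4 each, exact permutation p = 0.343). In whole lists wild type had the higher rank number by 6573 (exact permutation p = 0.0286), in lists that are themselves longer.

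Among the altered constructs, the lowest counts of cluster peaks in the equal-length lists were those of ARID1B_S320_G327del, with 33 and 35. ARID1B_A457_G461del had 39 and 41 and ARID1A_DBDmut had 42 and 41. Their deposited lists held 48850 to 70321 peaks. The other 7 constructs had 42 to 53 cluster peaks, which overlapped the Empty_vector range of 42 to 51: 46 and 42 with ARID1A_AQGscramC1C2, 47 and 46 with ARID1A_delIDR1, 48 and 45 with ARID1A_CBR, 50 and 47 with ARID1A_DDX4, 47 and 51 with ARID1B_Block13del, 50 and 49 with ARID1B_Block9del, and 50 and 53 with ARID1A_Y42S. The 42 of ARID1A_DBDmut 1 also lies at the lower end of the Empty_vector range. Within runs the reading differs, since Empty_vector had 49 in run A and 51 in run B. ARID1A_DBDmut, ARID1A_delIDR1 and ARID1A_CBR were below these values in both runs. Both ARID1B_S320_G327del libraries were below the 44 and 42 of Empty_vector in run C. ARID1A_CBR 2, in run B, had a deposited list of 66013 peaks and 45 cluster peaks. ARID1B_WT 2, in run C, had 59826 and 33. The parts of list length and run in these counts were not tested. These counts are given without a test: for a single count, an exact permutation test of 2 libraries against 4 cannot go below p = 0.0667. A rank fit of single altered constructs was not run. The constructs of runs D, E and F have no Empty_vector library of their run. For ARID1A_DDX4 and ARID1A_AQGscramC1C2, alone in runs D and F, construct and run cannot be told apart.

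No region of the cluster was gained and 2 were lost in the equal-length lists, where gained means called in all 4 wild-type and no Empty_vector list and lost means the opposite. Genome-wide shares were 5.78% gained and 2.27% lost of 32972 regions. Among the 36 cluster regions called in all 4 Empty_vector lists, the 2 lost ones are 5.56%, near the 4.78% of the genome. In the stretch between none of 24 regions was gained or lost. Calls were fewer in wild-type than in Empty_vector lists for 29 of the 59 cluster regions (49.2%, genome 29.7%) and more for 1 (1.69%, genome 23.5%). In the stretch between they were fewer for 2 of 24 and more for none.

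Both lost regions were lost through the trimming. Region 2 (chr6:26016426-26018308, 1883 bp) had ranks of 15615, 15475, 17278 and 15876 with Empty_vector, was called in none of the 4 wild-type lists, and in 11 of the 20 lists of altered constructs at ranks 16013 to 19330. Region 52 (chr6:27759048-27760368, 1321 bp) ranked better, at 12455, 14456, 8874 and 12660 with Empty_vector, again in no wild-type list, and in 15 of 20 lists of altered constructs. In the whole lists both regions were called in all 28 libraries, so each wild-type list held a peak there that ranked beyond the first 19433. The 1 region with more wild-type calls was region 39 (chr6:27500446-27501175, 730 bp), named after its values were seen. It was called in 3 wild-type lists and no Empty_vector list, and in whole lists in all 4 wild-type and no Empty_vector list.

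Regions with calls that varied most among constructs had weak ranks where they were called, with means of 13855 to 17340. Besides regions 2 and 52, they were region 10 (chr6:26119101-26120388), region 22 (chr6:27125596-27126177) and region 28 (chr6:27204971-27205499), called in 16, 10 and 11 of the 28 equal-length lists. Region 23 (chr6:27129747-27130393), called in 12 lists, tied with regions 10 and 22 in this spread. Region 22 was called in 3 Empty_vector lists at ranks 16667, 18222 and 17193 and in no wild-type list. Region 28 was called in 1 Empty_vector list and in 10 of the 20 lists of altered constructs. In whole lists regions 10, 22 and 28 were called in 19, 25 and 24 libraries, and region 23 in 26.

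Taking each construct by itself, the share of the 36 regions of all 4 Empty_vector lists that neither library called was near that of the genome. It was 13.9% (5 regions) with ARID1B_WT, where the genome gave 12.4%, and 5.56% (2 regions) with ARID1A_WT, where the genome gave 6.96%. ARID1B_S320_G327del lacked 6 regions (16.7%, genome 17.9%) and ARID1B_A457_G461del lacked 3 (8.33%, genome 8.8%). ARID1A_CBR and ARID1A_DDX4 lacked 1 each (2.78%, genome 2.6% and 2.39%). The other 6 constructs lacked none. There the genome gave 2.08% for ARID1A_DBDmut, 3.19% for ARID1A_delIDR1, 1.61% for ARID1A_Y42S, 0.662% for ARID1A_AQGscramC1C2, 2.24% for ARID1B_Block13del and 1.47% for ARID1B_Block9del. None of the 21 such regions of the stretch between was absent with any construct.

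The regions absent with ARID1B_WT were region 2, region 6 (chr6:26066049-26066886), region 18 (chr6:26285205-26286902), region 37 (chr6:27473222-27473827) and region 52. Those absent with ARID1B_S320_G327del were regions 2, 6, 18, 50, 52 and 53, and those absent with ARID1B_A457_G461del were regions 2, 18 and 52. ARID1A_CBR and ARID1A_DDX4 each lacked region 2. All of these regions were called in both whole lists of the construct concerned. The constructs share the Empty_vector lists that chose the 36 regions.

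**Figure D4:**
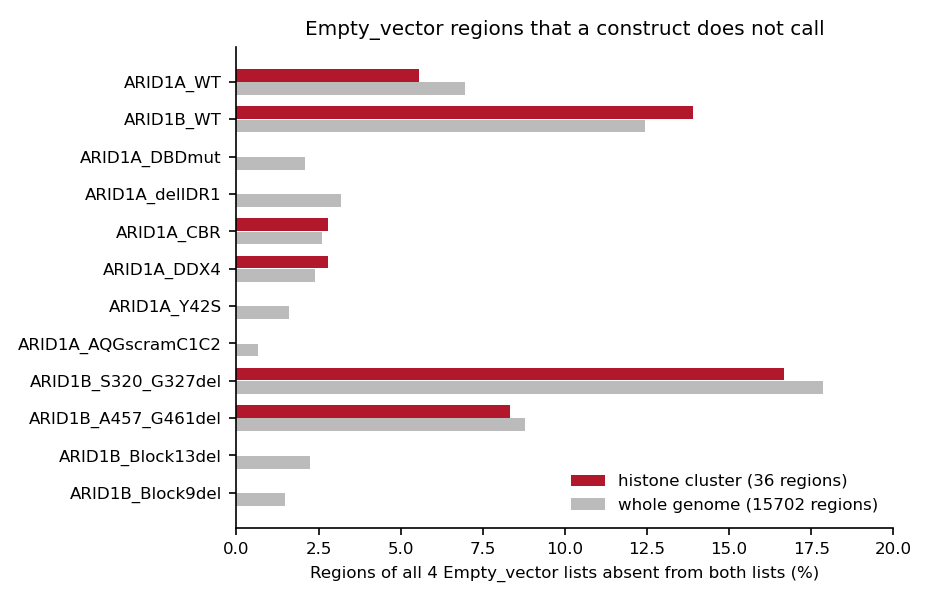
Bars give the percent of regions called in all 4 Empty_vector equal-length lists that neither library of a construct calls, for the 36 cluster regions (red) and for the 15702 regions of the whole genome (grey). The cluster bar reaches 16.7% with ARID1B_S320_G327del and 13.9% with ARID1B_WT, beside genome bars of 17.9% and 12.4%, and is 0 for 6 constructs.

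The 23 cluster regions called in all 28 lists could be compared by rank. Ranks were turned into normal scores (positive is a stronger rank) and fitted with limma over 9922 regions of the genome, with adjusted p under 0.05 as the threshold. With ARID1A_WT, 0 cluster regions ranked higher and 0 lower (background 0.826% higher and 0.776% lower of the 9922), and 3 of 23 had an unadjusted p under 0.05, beside 13.1% over the genome. With ARID1B_WT, 7 of 23 (30.4%) ranked lower and 0 higher, against a background of 8.3% lower and 2.44% higher. The median difference of the 23 regions was -0.32 with ARID1B_WT, beside -0.12 over all regions fitted. The sign was negative in 20 of 23, and also in 15 of 18 regions of the stretch between. Against the Empty_vector libraries of its own run the median was -0.17, closer to the -0.11 over all regions. There 16 of 23 were negative, and 11 of 18 in the stretch between. With ARID1A_WT the median was 0.05 against all Empty_vector libraries and -0.03 against those of its own runs. In its own runs 13 of 23 were negative, and 11 of 18 in the stretch between. Signs were not counted over the genome. In the stretch between, 1 of 18 regions ranked lower with ARID1B_WT and 2 higher.

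Of the 7 regions that ranked lower with ARID1B_WT, 4 lay in the first interval and 3 were among the 5 widest regions of the cluster. Region 13 changed most: its ranks were 2900, 3750, 3485 and 5862 with Empty_vector and 9715 and 14789 with ARID1B_WT, without overlap. The difference in normal score was -1.19 (SE 0.180, limma adjusted p = 0.000106). With ARID1A_WT region 13 had ranks of 5513 and 5991 (difference -0.30, adjusted p = 0.509).

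Region 16 (chr6:26203914-26206728, 2815 bp), next to the widest region, had ranks of 5862, 5290, 8254 and 7559 with Empty_vector and 11913 and 15861 with ARID1B_WT (difference -0.99, SE 0.176, limma adjusted p = 0.000528). Region 4 had ranks of 7194, 8337, 7073 and 8812 with Empty_vector and 13702 and 14423 with ARID1B_WT (difference -0.84, SE 0.180, limma adjusted p = 0.00312). In both regions the ARID1B_WT lists lay outside the Empty_vector range, and the ARID1A_WT lists were at 4975 and 6164 in region 16 and at 7761 and 7885 in region 4.

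Region 11 (chr6:26122752-26124920, 2169 bp) moved from ranks of 3247, 2714, 2818 and 3341 to 7206 and 6817 with ARID1B_WT (difference -0.66, SE 0.144, limma adjusted p = 0.00373). Region 58, at the far end of the second interval, moved from 7603, 7009, 7958 and 9623 to 12815 and 13087 (difference -0.65, SE 0.164, limma adjusted p = 0.0112). The other 2 were region 20 (chr6:27099230-27102931, 3702 bp), named because it passed the threshold, with a difference of -0.67 and an adjusted p of 0.0188, and region 21 with -0.50 and 0.0489. Only regions called in all 28 lists were fitted, so a region that left a list could not be among the 7.

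Against the Empty_vector libraries of run C alone, all 7 differences kept a negative sign and most kept their size: -1.07 in region 13, -0.83 in region 16, -0.83 in region 4, -0.76 in region 20, -0.65 in region 11, -0.55 in region 58 and -0.38 in region 21. None passed the threshold (limma adjusted p 0.114 to 0.488), in a fit that called 82 regions of the genome where the fit on all libraries called 1066. The count of 7 became 2 without ARID1B_WT 2 (8.7%, genome 3.55%). With lists of 9716 peaks, 12 cluster regions could be fitted and 1 was called lower (8.33%, genome 1.77% of 5088). Ranked by fold enrichment, 5 could be fitted and 0 were called lower (genome 0.825% of 5212).

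With ARID1A_WT the 5 regions of lowest p were not called, and 4 of them had a positive sign. Region 25 had ranks of 3913, 3910, 4929 and 6398 with Empty_vector and 1854 and 1933 with ARID1A_WT, which did not overlap (difference 0.60, SE 0.189, limma adjusted p = 0.121). Region 34 had ranks of 1014, 1231, 2968 and 1555 with Empty_vector and 471 and 706 with ARID1A_WT (difference 0.49, limma adjusted p = 0.235). Regions 31 (chr6:27300509-27301393) and 38 had differences of 0.47 and 0.42, and region 19 (chr6:27094529-27097940) had -0.33 (limma adjusted p 0.382 to 0.476). With only the controls of the own runs, the differences were 0.46 in region 25, 0.31 in region 34, 0.11 in region 31, 0.0019 in region 38 and -0.50 in region 19.

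No cluster region passed the test of a difference between the responses to the 2 wild types. The run-matched difference between their responses was called in 0 of 23 cluster regions (limma, background 0.202% of 9922), and 7 (30.4%) had an unadjusted p under 0.05, beside 11.9% over the genome. It was most negative in regions 16 (-0.83, adjusted p = 0.213) and 4 (-0.82, adjusted p = 0.263) and most positive in region 31 (0.90, adjusted p = 0.246). Across all 13 groups, the limma F test called 13 of 23 cluster regions (56.5%, background 34.5%) and 11 of 18 in the stretch between (61.1%). That test has no term for run, so differences among runs are part of what it calls.

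**Figure D5:**
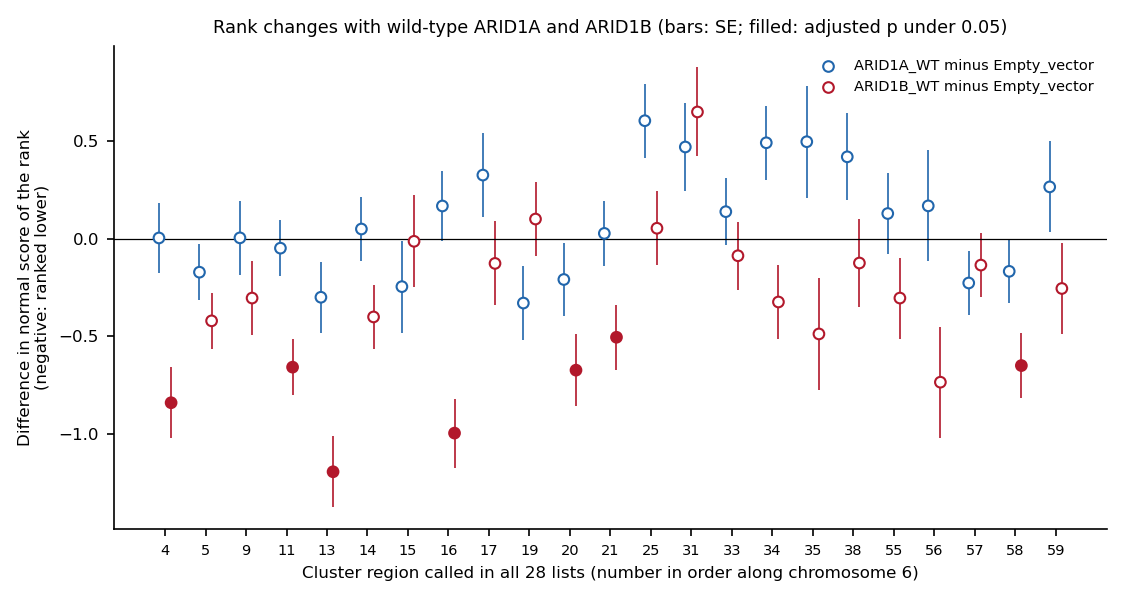
Difference in normal score of the rank from Empty_vector (vertical axis, no units; negative is a weaker rank) for the 23 cluster regions called in all 28 lists (horizontal axis, numbered along the chromosome), with ARID1A_WT in blue and ARID1B_WT in red. Bars are standard errors of the limma fit, and filled points have an adjusted p under 0.05; 7 red points are filled and no blue one.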

How the data were processed

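Each of the 28 libraries has its own list of broad peaks. Reads were processed with MACS2, Bowtie2, SAMtools 0.1.19, Picard 2.8.0 and bcl2fastq on hg19, per the submitters' processing notes. For caller options, control and cut-site shift, values were not given in the sources used here. For each peak the deposited lists give a score, a fold enrichment (a ratio), and the -log10 of its p-value and of its q-value. The smallest deposited -log10 q was 3.00 to 3.03 in every list.

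Lists were trimmed to 19433 peaks by -log10 p. Peaks touching an interval by 1 bp counted as members. Ranks were fitted with limma 3.58.1 (R 4.3.3) over regions called in all 28 lists, with 13 groups and Benjamini-Hochberg adjustment over 9922 regions. The fit was tested on simulated data with independent noise and shifts in ARID1A_WT alone. That simulation had no run differences, so it does not cover run effects or the ARID1B_WT comparison. Summaries over 4 wild-type and 4 Empty_vector libraries had exact permutation tests. The members, gene lists and settings were chosen with earlier results of these data known. Named regions are the 8 best ranked, the 5 widest, the 5 of lowest p per wild type, those lost, the 5 most variable in calls, and the 3 best between the intervals. With no hg19 annotation here, pathway genes and cell type markers were not analysed.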

Additional observations from a re-analysis of the deposited data

How the results depend on the processing

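The lists hold no read counts, so a region that is not called may still be open, and a list's length limits what it can show. Values are wild type minus Empty_vector. In whole lists the difference was 4 cluster peaks, -98.5 bp in median width, 6573 in median rank, 2.75 peaks in the stretch between, and -0.0563 points in the cluster share minus that of the stretch between. With 9716 peaks per list it was -5 cluster peaks and -191 bp. At equal covered length it was -1.5 cluster peaks, -0.520 points of cluster covered, -119 bp, 821 in rank and -0.486 points for the cluster minus the stretch between. With ranks by fold enrichment the covered values were -1.43 and -1.01. At a -log10 q of at least 10 it was -4.75 cluster peaks, -161 bp, -2.75 peaks between and -0.785 points.

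With 1 library left out, cluster peaks ran from -13.75 to -10.5, the cluster minus the stretch between from -1.19 to -0.856 points, the peaks between from -1.83 to -0.75 and their covered share from -0.407 to 0.0225 points. Gained regions ran from 0 to 1 and lost from 2 to 5 (5 without Empty_vector 4), counted in the cluster only and without a genome share. Regions ranked lower with ARID1B_WT ran from 2 to 7 (genome 3.55% to 8.52%) and higher from 0 to 1 (genome 1.03% to 2.48%). Regions with different responses to the wild types ran from 0 to 1 (1 without ARID1B_WT 1, 4.35%, genome 1.95%). Runs A and B alone gave -12.5 cluster peaks and run C alone -12, with too few libraries for a call; these were chosen after seeing the data.

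Gained and lost regions numbered 2 and 0 in whole lists. Lost regions numbered 0 with 9716 peaks, at equal covered length and at a -log10 q of at least 10, and 1 if half-covered regions (50%) were required. Ranked by fold, 1 region was gained. In these settings gained and lost regions were counted in the cluster only. Whether the counts differ from the share over the genome was not tested. In whole lists ranks were shares of the own list, and the median of all regions shifted by 0.41 with ARID1A_WT and 0.24 with ARID1B_WT, so few regions could rank lower. There, of 43 cluster regions, 5 ranked higher with ARID1A_WT (11.6%, genome 14.6%), 1 higher (2.33%, genome 5.84%) and 0 lower (genome 0.209%) with ARID1B_WT, and 34 passed the F test (79.1%, genome 73.6%). The count lower with ARID1B_WT was 1 of 12 with 9716 peaks, 0 of 5 by fold and 0 of 23 in its own run (genome 0.333%). The F test gave 5 of 12 with 9716 peaks (genome 18.8%) and 0 of 5 by fold (genome 1.48%). With all 59 regions called in at least 2 lists, the counts with ARID1A_WT were 1 higher (genome 10.3%) and 4 lower (genome 4.2%). With ARID1B_WT they were 0 higher (genome 15.1%) and 19 lower (32.2%, genome 12%). The F test called 31 (52.5%, genome 45%), and the difference between wild types was called in 3 (genome 10.5%).

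Replicate numbers mark a run in the 5 groups of runs A and B, where 5 of 10 pairs of groups had a correlation over 0.1 (median 0.075). Elsewhere 2 of 68 did (median -0.00703), and there the numbers were not taken as pairing the samples. Apart from the block results below, no fit or permutation test had a term for run A against run B. That holds for the comparisons of ARID1A_WT too. Numbers 3 and 4 occur only in Empty_vector, so a block by number compares with Empty_vector 1 and 2 of runs A and B. ARID1B_WT then has no Empty_vector library of its own run. With that block the difference was -15.75 cluster peaks and -1.34 points (exact permutation p = 0.111 each, the smallest this test allows). The block fit called 0 of 23 regions with ARID1A_WT (genome 0.927%) and 7 lower with ARID1B_WT (30.4%, genome 7.68%). Its F test gave 14 (60.9%, genome 37.8%).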

Other observations

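Between the intervals, 2 neighbouring regions moved in opposite directions with ARID1B_WT. They were chosen after their values were seen. The region at chr6:26553626-26555625 ranked higher with both wild types, by 1.16 with ARID1A_WT (limma adjusted p = 0.000733) and by 1.30 with ARID1B_WT (limma adjusted p = 4.3e-05), and passed the threshold against the Empty_vector libraries of the own run too (0.97 and 1.49, adjusted p = 0.00545 and 0.0255). The region at chr6:26556517-26557640 had a difference of -1.60 with ARID1B_WT (limma adjusted p = 4.4e-05), and -1.54 in its own run (adjusted p = 0.0848). Its difference with ARID1A_WT was -0.35 (adjusted p = 0.531). In the same fit, none of the 23 regions of the histone cluster passed the threshold in the higher direction with either wild type. The whole-list fit called 5 of 43 higher with ARID1A_WT (genome 14.6%) and 1 with ARID1B_WT (genome 5.84%).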
